A study of Mus musculus with 4 samples.

Results

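The genes described here encode the enzymes that activate fatty acids and oxidise them in mitochondria and peroxisomes. They are 32 genes, chosen by symbol from the 31053 genes of the deposited matrices. By role they are 4 acyl-CoA synthetases (activation), 6 genes of the carnitine shuttle, 10 of the mitochondrial oxidation spiral, 2 auxiliary enzymes for unsaturated fatty acids, 3 of electron transfer, 4 peroxisomal enzymes, 2 acyl-CoA thioesterases and the receptor Ppara. By compartment, 23 of the proteins are mitochondrial and 5 peroxisomal, and 4 belong elsewhere in the cell. All 4 libraries were single-cell RNA libraries of the stromal vascular fraction, the non-adipocyte cells that collagenase frees from fat, from C57BL/6 mice 8 weeks old, and the fat was the fourth inguinal depot. The cold group (2 libraries) had been kept for 24 h at 4 °C, and the control group (2 libraries) at room temperature. What the room temperature was, which sex the mice had and how many animals went into a library is not stated in the labels. Each p-value below therefore measures the spread between libraries, which may be technical.

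Before a fatty acid can be oxidised it is joined to coenzyme A by a long-chain acyl-CoA synthetase. Carnitine palmitoyltransferases and the carnitine carrier move it into the mitochondrion, where dehydrogenases, the trifunctional protein and thiolases shorten it in repeated turns, and the electron transfer flavoprotein passes the electrons on to the respiratory chain. Peroxisomes shorten very long and branched chains with their own enzymes, and thioesterases release the free acid from coenzyme A again. In brown and beige adipocytes this route fuels heat production in the cold, and the nuclear receptor encoded by Ppara is a known activator of many of its genes.

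The libraries held 3871 to 6339 barcodes and 35198164 to 55160902 UMIs (unique molecular identifiers, each counting 1 captured transcript), and 15197 cells remained after quality filters and removal of 524 likely doublets. Any pair of libraries shared 5 to 10 barcode sequences. The cells formed 38 clusters, which were named from marker genes. Of the resulting classes, 9 named ones had at least 20 cells in every library, as did a cluster of 644 cells with the markers of both luminal types. This cluster is called here the luminal cluster with both marker sets, and its cells carried 42596 to 53223 UMIs each on average, against 23088 to 30596 in the luminal hormone-sensing class and 4703 to 16076 in the luminal alveolar progenitor class. Whether it holds doublets of these 2 types was not tested, and results on it are given with that limit. The luminal classes are mammary epithelium, which lies within this depot. Levels are CPM, the standard scaling of a gene's UMIs to the UMIs of all genes in that class and library. They are not scaled by transcript length, so they are compared between classes and libraries, not between genes. Mature adipocytes were not a class: their 7 markers summed to at most 1.66 CPM in any fibroblast library and 1.44 CPM in any T cell library, with Lep at 0 in both classes. In the vascular endothelium no marker was at 0, and they summed to 106 and 115 CPM in cold against 209 and 19.5 CPM.

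The upstream sequences of a few genes are given here beside the results that follow. RefSeq promoters of the build GRCm38.p6, each from 250 bases before to 50 bases after the start, were found for 25 of the 32 genes. The letters upstream of Acsl3 and Acot2 are shown because both genes were lower in the cold T cells. The interval between Hadha and Hadhb is shown because these genes, which encode the subunits of the mitochondrial trifunctional protein, lie 85 bases apart, start to start, on opposite strands of chromosome 5, and Hadhb had among the smallest p-values in the hormone-sensing class and the luminal cluster with both marker sets. Capitals mark GGGCGG (the GC box) and CCAAT on either strand.
Acsl3, chr1:78657725-78657824, plus strand: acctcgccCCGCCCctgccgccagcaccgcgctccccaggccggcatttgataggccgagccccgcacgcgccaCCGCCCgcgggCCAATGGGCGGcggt
Acot2, chr12:83987761-83987860, plus strand: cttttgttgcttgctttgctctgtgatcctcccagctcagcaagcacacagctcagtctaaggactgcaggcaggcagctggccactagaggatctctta
Hadha-Hadhb, chr5:30155163-30155247, plus strand: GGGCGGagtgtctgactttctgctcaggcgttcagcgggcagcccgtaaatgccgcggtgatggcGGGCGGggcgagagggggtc
The Acsl3 window was 79.0% G and C and held 3 GC boxes and 1 CCAAT. The Acot2 window was 53.0% G and C and held neither motif, and the Hadha-Hadhb interval held 2 GC boxes. Over the 300-base promoters, searched on both strands, a GC box was present for 20 of 25 of the genes and for 38.2% of the 27025 genes in the table. CCAAT was present for 13 of 25 and for 41.1%. AGGTCA, the binding motif of many nuclear receptors, was present for 4 of 25 (Acadm, Acadvl, Cpt1a and Cpt1c) and for 18.1% of all genes. Its direct repeat with a spacer of 1 base (DR1, searched as AGGNCA, any base, AGGNCA) was in none of the 25 windows and in 0.451% of all genes, and TCAAGGTCA, the element of the estrogen-related receptors, was in none and in 0.466%. Both counts concern these letters in these windows only.

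The summed level of the 32 genes was highest in the luminal classes and lowest in the B cells. In the luminal hormone-sensing class the sum was 2355 and 2420 CPM in cold against 2204 and 2002 CPM in the controls. It was 1453 and 1497 against 1416 and 1421 CPM in the fibroblasts and adipose progenitors, and averaged 746 ± 43.9 CPM (SD, n = 4) in the B cells. These differences between classes are descriptions, because all genes helped to form the clusters, and they carry no test. Averaged over the 4 libraries, 11 genes were highest in the luminal hormone-sensing class, 9 in the luminal alveolar progenitors, 5 in the fibroblasts and adipose progenitors and 3 in the macrophages and monocytes.

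**Figure D1:**
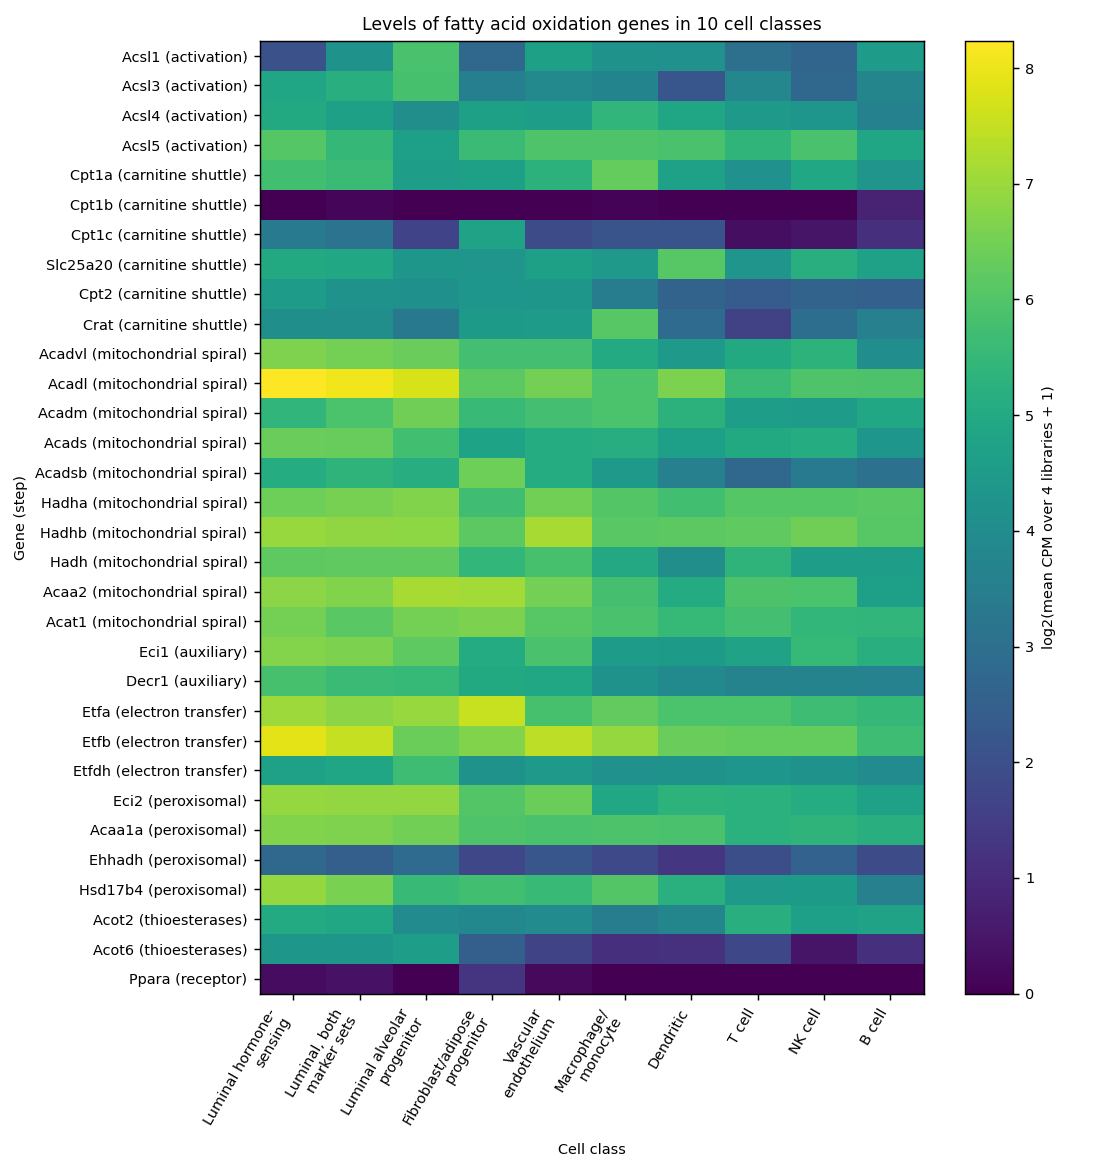
Mean level of each gene (rows, with its step) in each of 10 cell classes (columns), as log2 of the mean CPM over 4 libraries plus 1. Acadl is brightest in the 3 luminal columns, Crat and Cpt1a in macrophages, and Cpt1b and Ppara are dark in every column.

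Among the activating enzymes, Acsl1 averaged 57.4 ± 22.8 CPM (SD, n = 4) in the luminal alveolar progenitors and 3.12 ± 0.991 CPM in the luminal hormone-sensing class, and the libraries of these classes did not overlap. Acsl3, a synthetase of the endoplasmic reticulum and lipid droplets, was also highest in the alveolar progenitors (56.6 ± 5.50 CPM) and lowest in the dendritic cells (3.65 ± 1.28 CPM). Acsl4, which prefers arachidonic acid, averaged 42.0 ± 4.71 CPM in the macrophages, where 1 library of the luminal hormone-sensing class reached into the macrophage range. Acsl5 differed less between classes, and its highest class, the luminal hormone-sensing cells (65.8 ± 7.09 CPM), overlapped the vascular endothelium (61.2 ± 11.7 CPM).

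The genes of the carnitine shuttle peaked in different classes. Cpt1a, the regulated entry step, averaged 76.4 ± 6.87 CPM in macrophages and monocytes, with 52.1 ± 12.3 CPM in the luminal hormone-sensing class next. Crat, carnitine acetyltransferase, averaged 67.9 ± 6.96 CPM in macrophages, and its lowest macrophage library (59.3 CPM) lay above the highest library of the next class, the vascular endothelium (24.7 CPM). Cpt1c, a form best known from neurons, averaged 26.1 ± 2.04 CPM in fibroblasts and adipose progenitors, above every library of the luminal hormone-sensing class (at most 14.8 CPM). In T cells no library exceeded 0.959 CPM of Cpt1c, which is 3.67% of the fibroblast mean. Slc25a20, the carnitine carrier, was highest in dendritic cells (66.8 ± 29.1 CPM) and Cpt2, the inner membrane transferase, in the luminal hormone-sensing class (22.2 ± 1.98 CPM). Cpt1b, the muscle form, had 6 UMIs over the 10 classes tested, and Ppara had 54, with its highest mean in fibroblasts (1.33 ± 0.400 CPM). Neither passed the count filter of the test in any class.

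In the mitochondrial spiral, Acadl, long-chain acyl-CoA dehydrogenase, averaged 300 ± 69.4 CPM in the luminal hormone-sensing class, 266 ± 73.3 CPM in the luminal cluster with both marker sets and 48.0 ± 6.14 CPM in T cells, its lowest class. Acadvl and Acads, which take very long and short chains, were also highest in the luminal hormone-sensing class (98.1 ± 7.20 and 80.2 ± 2.17 CPM). Acadsb, which acts on short branched chains, was the dehydrogenase highest in fibroblasts and adipose progenitors (83.8 ± 2.80 CPM), and no fibroblast library overlapped the next class (40.1 ± 6.57 CPM). The subunits of the trifunctional protein peaked in different classes, Hadha in the alveolar progenitors (101 ± 9.92 CPM) and Hadhb in the vascular endothelium (142 ± 29.7 CPM), but for both genes the libraries of the top classes overlapped. Part of the Hadhb count is uncertain, since 21.4% of the 91-base words at the transcript's end recur in Gm13910. Acadm, the medium-chain dehydrogenase, Hadh, which oxidises the hydroxyl group, and Acaa2, a thiolase, were highest in the alveolar progenitors (85.9 ± 25.4, 74.2 ± 14.9 and 142 ± 21.0 CPM), and Acat1, another thiolase, in fibroblasts (97.5 ± 6.32 CPM). Eci1 and Decr1, the auxiliary enzymes for unsaturated chains, were highest in the luminal hormone-sensing class (103 ± 4.35 and 56.8 ± 7.76 CPM).

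Etfa, a subunit of the electron transfer flavoprotein, averaged 186 ± 29.5 CPM in fibroblasts, and its partner Etfb averaged 236 ± 16.0 CPM in the luminal hormone-sensing class. Etfdh, which hands their electrons to ubiquinone, averaged 50.8 ± 12.2 CPM in the alveolar progenitors, where every library lay above the next class (at most 29.5 CPM). Etfb shares 48.9% of these words with Gm45233, and Acaa1a shares 19.3% with Acaa1b.

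Of the peroxisomal enzymes, Hsd17b4, the D-bifunctional protein, ranged from 120 ± 24.1 CPM in the luminal hormone-sensing class to 11.1 ± 1.23 CPM in B cells. Eci2, an enoyl-CoA isomerase, and Acaa1a, a thiolase, were highest in the same class (122 ± 19.8 and 102 ± 5.09 CPM). Ehhadh, the L-bifunctional protein, did not exceed 10.3 CPM in any library of any class. Acot2, a mitochondrial thioesterase, was the only gene highest in T cells (35.2 ± 11.5 CPM), where its libraries overlapped those of the luminal hormone-sensing class. Acot6, a peroxisomal thioesterase, averaged 22.9 ± 21.4 CPM in the alveolar progenitors, with a spread that followed the temperature groups as described next.

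Whether the genes changed after a day in the cold was tested class by class on UMI counts summed per library (edgeR's quasi-likelihood test, two-sided, with Benjamini-Hochberg adjustment over all genes tested in the class and a threshold of 0.05). Of 261 pairs of gene and class with enough counts, 3 passed: Acot6 rose in the luminal alveolar progenitors, and Acsl3 and Acot2 fell in the T cells. At an unadjusted p under 0.05 there were 42 pairs, of which 33 were higher and 9 lower in cold. These pairs are not independent, since the classes share the same 4 libraries. The split, and the counts given below at an unadjusted p or by the sign of the fold change, were not set against the share of all genes.

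**Figure D2:**
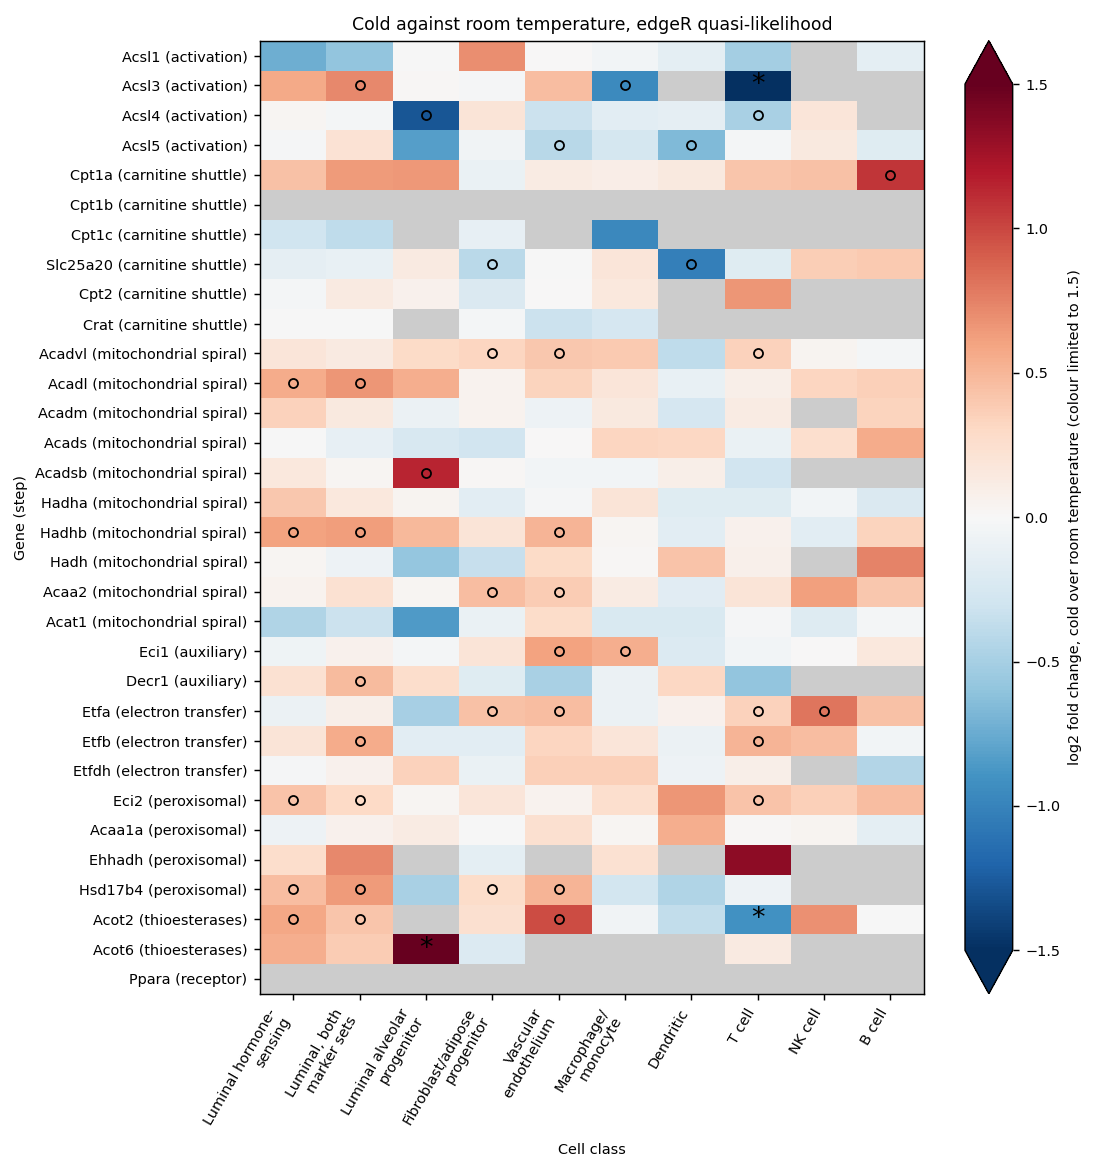
log2 fold change of cold over room temperature for each gene (rows) in each of 10 classes (columns), red for higher and blue for lower in cold, grey where counts were too low to test. Asterisks mark the 3 pairs past the adjusted threshold and circles the other pairs with an unadjusted p under 0.05.

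Acot6 rose in the luminal alveolar progenitors, mammary epithelial cells with Csn3 and Wfdc18. Its level was 50.3 and 29.5 CPM in cold and 4.93 and 6.74 CPM at room temperature, from 26, 13, 3 and 9 UMIs. Both cold libraries lay above both controls. The log2 fold change was 2.60 (SE 0.50, edgeR adjusted p = 0.0483), and 0.592% of all genes tested in this class passed, 0.423% upward. With these few UMIs the gene met the count filter through its cold libraries only. Without cold replicate 1 the change was 2.20 with an adjusted p of 0.999. With finer clusters (Leiden resolution 2), which put 192, 96, 55 and 166 cells in the class in place of 110, 69, 51 and 83, it was 1.03 with an adjusted p of 0.120. In the other alternatives with an adjusted p it lay between 2.47 and 2.90 and passed.

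Several other values moved with the groups in the alveolar progenitors. The cells carried 4703 and 6380 UMIs each in cold against 11936 and 16076 in the controls. The 7 markers of the class summed to 17219 and 16240 CPM in cold against 11110 and 12071 CPM. Fibroblast markers, 8 genes, were lower in cold (104 and 45.4 against 161 and 142 CPM), as were transcripts of the mitochondrial genome (65838 and 58337 against 72919 and 69899 CPM). The part of these in the Acot6 result was not tested. Of 7 adipocyte markers 5 were at 0 in every library (Lep, Cidec, Plin1, Retn and Adipoq), and the sum did not exceed 3.87 CPM.

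**Figure D3:**
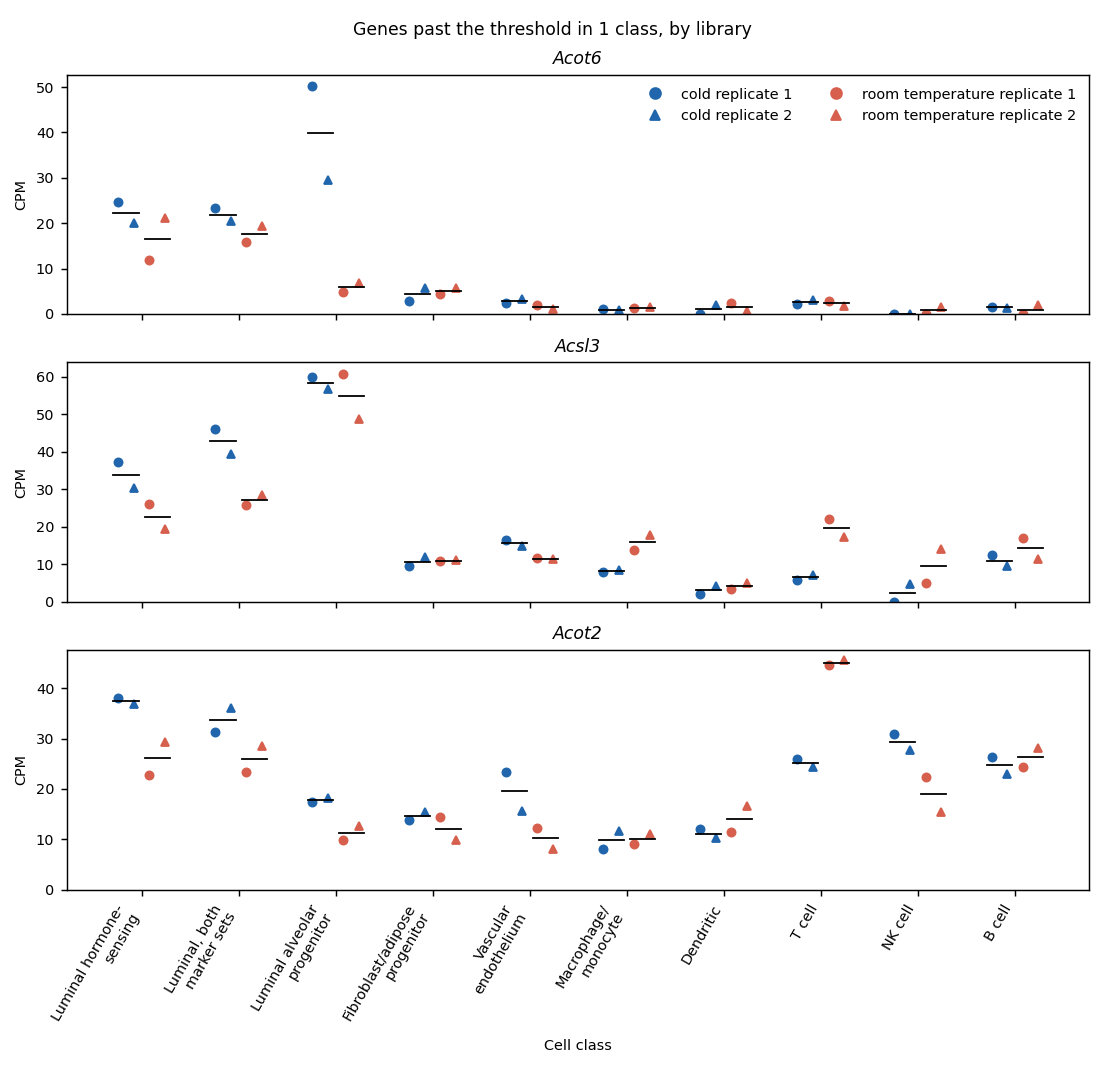
Level of Acot6, Acsl3 and Acot2 in CPM (vertical axes from 0) in each library and class, with cold in blue, room temperature in red and black bars for group means. The cold alveolar progenitors stand out for Acot6, and in the T cells both cold libraries lie below both controls for Acsl3 and Acot2.

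In the luminal hormone-sensing cells the same gene did not pass. There Acot6 was 24.6 and 20.04 CPM in cold and 11.8 and 21.1 CPM at room temperature (0.54, edgeR adjusted p = 0.477), and the groups overlapped. This class is made of clusters of unlike level. In the cluster led by Prlr, which held 468 and 367 cold and 109 and 98 control cells, Acot6 was 26.9 and 27.6 CPM in cold against 33.6 and 34.1 CPM. There both cold libraries lay below both controls, opposite in sign to the class value of 0.54. In the cluster led by Upk3a it was 6.34 and 4.45 against 6.57 and 4.48 CPM, and the groups overlapped. The part of the cluster make-up in the class value, which enters the next comparison, was not tested. The direct test of the difference between the classes, alveolar progenitors minus hormone-sensing, gave 2.18 (SE 0.54, edgeR adjusted p = 0.0737), and 0.506% of all genes passed in this comparison. Against fibroblasts the difference was 2.92 (adjusted p = 0.137; 0.45% of genes passed). Acot6 lies on chromosome 12 (84100654 to 84111349, plus strand, GRCm38), at the far end of an array of acyl-CoA thioesterase genes that begins with Acot2 (83987861 to 83993873). Acot2 had too few counts for the test in the alveolar progenitors and was 17.4 and 18.2 CPM in cold against 9.86 and 12.7 CPM.

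The other genes with the smallest adjusted p in the alveolar progenitors did not pass. Acadsb was 38.7 and 59.1 CPM in cold and 16.4 and 23.2 CPM at room temperature (1.15, SE 0.39, edgeR adjusted p = 0.314), with no overlap. The controls alone would not have brought Acadsb past the count filter, as room temperature replicate 1 lay below its level. Acsl4 was 5.80 and 13.6 against 22.999 and 21.0 CPM (-1.28, adjusted p = 0.456), and Hadh 58.0 and 65.9 against 82.1 and 90.7 CPM (-0.58, adjusted p = 0.553). Here Acsl4 met the count filter through its control libraries only. Acat1, the thiolase of the last turn and of ketone bodies, was 50.3 and 84.0 against 163 and 68.2 CPM (-0.85, adjusted p = 0.544). For Acat1 room temperature replicate 1 stood high, and the value moved with the control left in: it was -0.12 without room temperature replicate 1 (adjusted p = 0.988) and -1.42 without room temperature replicate 2 (adjusted p = 0.00675). At Leiden resolution 2 it was -0.37 (adjusted p = 0.561). Over the 26 genes tested 6 lay higher and 4 lower in both cold libraries, where 26.3% and 16.4% of all genes did. By fold change 15 were above 0 and 11 below, with a median log2 fold change of 0.03, against -0.02 over all genes.

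In the T cells Acsl3 and Acot2 fell. Acsl3 was 5.83 and 7.27 CPM in cold and 22.1 and 17.2 CPM at room temperature, from 34, 29, 46 and 58 UMIs. The groups did not overlap, and the log2 fold change was -1.65 (SE 0.25, edgeR adjusted p = 0.0187). Acot2 was 26.1 and 24.3 CPM in cold against 44.6 and 45.7 CPM (-0.91, SE 0.15, edgeR adjusted p = 0.0230), from 152, 97, 93 and 154 UMIs. They were 2 of 28 genes tested, where 2.44% of all genes passed and 1.82% downward. Without room temperature replicate 2 neither passed (-1.81 with an adjusted p of 0.0564, and -0.86 with 0.101). DESeq2 gave no adjusted p for Acsl3 and an adjusted p of 0.0317 for Acot2. Exons of Acsl3 (chromosome 1, 78657825 to 78707743, plus strand) overlap those of Utp14b on the same strand, so its count may include reads of that gene.

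The clusters within the T cells held different numbers of cells in the groups. The cluster led by Cd8b1 held 463 and 245 cold cells and 50 and 14 control cells, while the cluster led by Dapl1 held 354 and 139 against 307 and 253. In the Cd8b1-led cells Acsl3 was 3.27 and 3.25 CPM in cold and 4.54 and 18.4 CPM at room temperature, where the control values rest on 1 and 2 UMIs. Acot2 was 44.9 and 39.2 CPM in cold against 56.3 and 54.6 CPM in the Dapl1-led cells. In the Cd8b1-led cells Acot2 was 20.4 and 18.9 against 22.7 and 36.8 CPM, where the control values rest on 5 and 4 UMIs. In alternatives chosen after seeing the data, leaving these cells out gave -1.34 for Acsl3 and -0.80 for Acot2 (edgeR adjusted p = 0.0120 and 0.0101), and Etfb and Etfa then passed as higher in cold (0.80 and 0.59). Still included there was a T cell cluster with Mki67 and Top2a, of 42 and 56 cold and 20 and 41 control cells. Its median was 19400 UMIs per cell, against 4597 in the Dapl1-led cluster, so each of its cells weighs more in the summed counts. The part of this cluster in these values was not tested. Within the Dapl1-led cluster alone the changes were -0.88 and -0.42 (adjusted p = 0.306 and 0.380). Within the cluster led by Tnfrsf4, a T cell cluster with Ctla4 and Ikzf2, Acsl3 was 10.9 and 14.4 CPM against 28.5 and 25.5 CPM (-0.9995, adjusted p = 0.595), and the Acot2 value was 0.041 (adjusted p = 0.988).

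Marker lists of other cell types moved with the groups in T cells as well. Fibroblast markers summed to 89.3 and 30.3 CPM in cold against 321 and 122 CPM, and the 8 dendritic markers to 447 and 408 against 740 and 734 CPM. The 6 markers of type 2 innate lymphoid cells were higher in cold (670 and 625 against 529 and 474 CPM). Some genes of these lists are also T cell genes. They include Ccr7 in the dendritic list and Il7r in the innate lymphoid list, and Il7r is a leading gene of the Cd8b1-led cluster. The dendritic and innate lymphoid sums therefore do not mark other cell types alone. Transcripts of the mitochondrial genome were lower in cold (43518 and 42280 against 50751 and 52903 CPM). Their part in the results was not tested.

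Among the T cell genes that did not pass, Etfb was 87.2 and 100 CPM in cold against 59.9 and 65.0 CPM (0.50, SE 0.12, edgeR adjusted p = 0.0765). Acsl4 (-0.49, adjusted p = 0.175) was lower in both cold libraries, and Eci2 (0.43, adjusted p = 0.161), Etfa (0.34, adjusted p = 0.172) and Acadvl (0.34, adjusted p = 0.234) were higher in both. Of the 28 genes 9 lay higher and 5 lower in both cold libraries, where 32.5% and 19.9% of all genes did. The median log2 fold change was 0.04 over the genes and 0.00 over all genes in T cells. By step, the 4 synthetases had fold changes below 0 and the 3 electron transfer genes above 0.

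The fold change of Acsl3 had opposite signs in T cells and in 2 luminal classes. In the luminal cluster with both marker sets it was 46.2 and 39.4 CPM in cold and 25.7 and 28.4 CPM at room temperature (0.72, SE 0.14, edgeR adjusted p = 0.124). At Leiden resolution 2, which left 24, 26, 132 and 28 cells with both marker sets, the change there was 0.13 for Acsl3 and 0.081 for Acot2, against 0.42 for Acot2 in the cluster as reported. In the luminal hormone-sensing cells Acsl3 was 37.2 and 30.5 against 26.1 and 19.3 CPM (0.57, adjusted p = 0.424). In macrophages and monocytes it was 7.93 and 8.60 against 13.9 and 17.7 CPM (-0.95, adjusted p = 0.215). Macrophage clusters led by C1qa were filled unevenly, with 124 and 83 cold against 693 and 258 control cells in the largest, 273 and 132 against 351 and 61 in another and 12 and 13 against 45 and 204 in the last. The cold effect in T cells minus that in the luminal cluster, a comparison chosen after these values were seen, was -2.35 for Acsl3 (SE 0.29, edgeR adjusted p = 0.00198) and -1.30 for Acot2 (SE 0.23, adjusted p = 0.0172), and 0.903% of all genes passed there. As the pair was chosen for these values, the test is no independent support for them. The Acot2 difference did not pass without room temperature replicate 2 (-1.35, adjusted p = 0.0735). T cells minus fibroblasts gave -1.65 and -1.16 (adjusted p = 0.109 and 0.156), where no gene at all passed and 5 of these genes had an unadjusted p under 0.05. T cells minus macrophages gave an adjusted p of 0.564 for Acsl3 and 0.391 for Acot2, where 0.0086% of genes passed. Minus fibroblasts, the smallest adjusted p among these genes was 0.357 for the hormone-sensing class (0.0794% of all genes passed), 0.291 for the vascular endothelium (0.794%) and 0.145 for macrophages (0.599%). Of 241 such tests of these genes in 8 pairs of classes, the 2 given above passed.

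In the luminal hormone-sensing class none of the 30 genes tested passed, where 0.00786% of all genes did. By edgeR 5 had an unadjusted p under 0.05, as did 5 by DESeq2, which called none either. All 5 by edgeR were higher in cold. Hadhb, the thiolase subunit of the trifunctional protein, was 151 and 143 CPM in cold and 99.8 and 99.1 CPM at room temperature (0.60, SE 0.12, edgeR adjusted p = 0.376). Acot2 was 38.1 and 36.9 against 22.8 and 29.3 CPM (0.58, adjusted p = 0.376), and Eci2 was 133 and 145 against 104 and 108 CPM (0.43, adjusted p = 0.390). Hsd17b4 was 143 and 131 against 86.8 and 120 CPM (0.46, adjusted p = 0.395), and Acadl 360 and 350 against 280 and 211 CPM (0.56, adjusted p = 0.413). The groups did not overlap for any of these, and over the 30 genes 12 lay higher and 5 lower in both cold libraries, against 19.4% and 26.2% of all genes. Hadha, the partner that starts beside Hadhb, was 91.7 and 100 against 79.6 and 67.9 CPM (0.40, adjusted p = 0.418).

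The Prlr-led cluster held most cold cells of this class, and the Upk3a-led cluster, with 33 and 115 cold and 334 and 37 control cells, held most of room temperature replicate 1. The values were therefore also taken within each. For Hadhb they were 154, 161, 118 and 104 CPM in the Prlr-led cells (cold replicates, then controls; 0.55, edgeR adjusted p = 0.409) and 127, 106, 95.6 and 95.3 CPM in the Upk3a-led cells (0.31, adjusted p = 0.970). Both clusters kept both cold libraries above both controls for Hadhb, Eci2 (0.38 and 0.45), Hsd17b4 (0.33 and 0.35) and Acadl (0.47 and 0.37). Acot2 overlapped in the Upk3a-led cells (29.3 and 22.2 against 21.9 and 23.04 CPM). Macrophage markers in the class were lower in cold (38.8 and 25.9 against 104 and 84.3 CPM), and those of alveolar progenitors too (90.3 and 238 against 540 and 511 CPM). Their part in these values was not tested.

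In the luminal cluster with both marker sets Hadhb, Hsd17b4, Acadl, Eci2 and Acot2 also lay higher in both cold libraries. None of its 30 genes passed by edgeR (0.0168% of all genes did), 8 had an unadjusted p under 0.05, and DESeq2 called 2, Hadhb and Hsd17b4. Hsd17b4 was 110 and 119 CPM in cold and 68.6 and 83.2 CPM at room temperature (0.64, SE 0.10, edgeR adjusted p = 0.101), and Hadhb 130 and 147 against 88.0 and 96.2 CPM (0.63, SE 0.10, adjusted p = 0.109). Decr1, the dienoyl-CoA reductase for unsaturated chains, was 54.0 and 57.3 against 42.1 and 40.5 CPM (0.47, adjusted p = 0.177). Etfb was 204 and 221 against 160 and 136 CPM (0.56, adjusted p = 0.193), and Acadl 312 and 336 against 243 and 173 CPM (0.67, adjusted p = 0.235). For Hsd17b4, Hadhb, Decr1, Etfb and Acadl no cold library overlapped a control. Over the 30 genes 11 lay higher and 3 lower in both cold libraries, against 20.3% and 28.1% of all genes, and the median log2 fold change was 0.14 against -0.02. This cluster's counts depended on single libraries: 12 genes passed without room temperature replicate 1, where 2744 of 12523 genes in all did, and 7 passed without room temperature replicate 2, where 1259 of 11997 did. At Leiden resolution 2 the changes were smaller, 0.19 for Hadhb, 0.39 for Hsd17b4, 0.20 for Decr1, 0.081 for Etfb and 0.39 for Acadl.

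**Figure D4:**
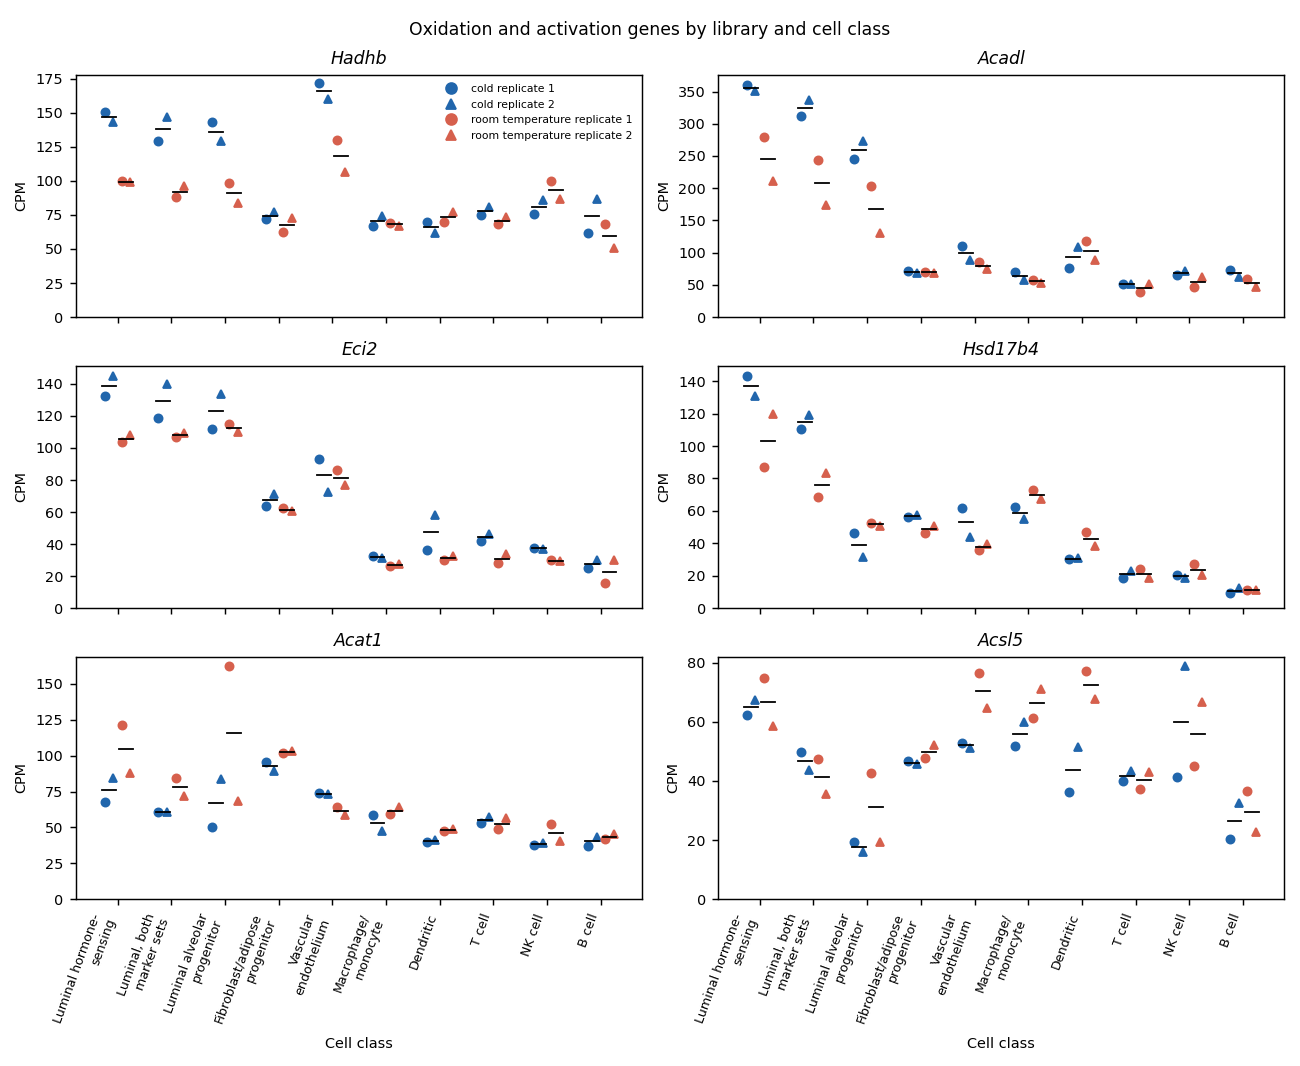
Level in CPM (vertical axes from 0) of Hadhb, Acadl, Eci2, Hsd17b4, Acat1 and Acsl5 in each library of 10 classes, with cold in blue, room temperature in red and black bars for group means. In the hormone-sensing and mixed luminal columns the cold points of Hadhb and Acadl lie above the control points, while fibroblast points of Acadl coincide.

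In the fibroblasts and adipose progenitors, the class that includes the precursors of adipocytes, none of 30 genes passed, where 2.58% of all genes did. By edgeR 5 had an unadjusted p under 0.05, and by DESeq2 2, with none called. Etfa was 210 and 213 CPM in cold and 156 and 166 CPM at room temperature (0.44, SE 0.11, edgeR adjusted p = 0.0966). Acaa2, a mitochondrial thiolase, was 158 and 154 against 120 and 113 CPM (0.46, SE 0.12, adjusted p = 0.100). For both genes the gap between the groups was wider than that between replicates. Acadvl was 59.7 and 59.3 against 47.9 and 50.3 CPM (0.33, adjusted p = 0.182), and Hsd17b4 56.2 and 57.7 against 46.5 and 50.5 CPM (0.28, adjusted p = 0.235). Etfb did not follow its partner Etfa, at 92.0 and 95.2 against 107 and 109 CPM (-0.16, adjusted p = 0.456). Acadl, the gene that was higher in cold in the luminal classes, was 72.0 and 67.9 against 70.6 and 68.8 CPM (0.05, adjusted p = 0.856).

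Over the 30 fibroblast genes 6 lay higher and 11 lower in both cold libraries, where 21.8% and 29.2% of all genes did, and the median was -0.02 against 0.00. The cluster led by Cxcl13 held 292 and 90 cold cells against 7 and 0 control cells. In an alternative chosen after seeing the data that left it out, Etfa was at 0.35 (edgeR adjusted p = 0.198) and Acaa2 at 0.47 (adjusted p = 0.127). The fibroblast markers themselves, among them collagens, were lower in cold (27763 and 28767 against 47237 and 45263 CPM), as were transcripts of the mitochondrial genome (17186 and 20537 against 24789 and 29930 CPM). Their part in these values was not tested.

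The vascular endothelium had the most genes above the controls in both cold libraries, 14 of 27, where 20.5% of all genes did. None passed (0.02% of all genes did), 8 had an unadjusted p under 0.05 by edgeR, and DESeq2 had none and called none. Eci1, an enoyl-CoA isomerase of mitochondria, was 73.7 and 65.1 CPM in cold and 43.6 and 48.3 CPM at room temperature (0.61, SE 0.16, edgeR adjusted p = 0.226), and Hadhb 172 and 160 against 130 and 106 CPM (0.50, adjusted p = 0.269). Acsl5 went the other way, at 52.8 and 51.1 against 76.4 and 64.5 CPM (-0.42, adjusted p = 0.373). Lower in both cold libraries were 3 genes, where 23.5% of all genes were. The list of luminal hormone-sensing markers summed higher in cold in this class (2112 and 1743 against 1660 and 1367 CPM). That list includes Ly6a and summed to 2551 to 3272 CPM in the fibroblast libraries, so it does not mark luminal cells alone. Markers of lymphatic endothelium were higher in cold (73.7 and 313 against 71.9 and 72.1 CPM), and the class's own markers were lower (7206 and 6181 against 7225 and 7717 CPM). Their part in these values was not tested. The median over the genes was 0.24, against 0.00 over all genes in this class.

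In macrophages and monocytes none of 29 genes passed (0.151% of all genes did). At an unadjusted p under 0.05 edgeR had 2, Acsl3 as given above and Eci1 (0.55, edgeR adjusted p = 0.389), and DESeq2 had 1 and called none. Of the genes highest in this class, Cpt1a was 80.3 and 78.9 CPM in cold against 80.1 and 66.1 CPM (0.10, adjusted p = 0.836), and Crat 65.5 and 59.3 against 75.0 and 71.7 CPM (-0.25, adjusted p = 0.521). The groups overlapped for Cpt1a but not for Crat. Over the 29 genes 9 lay higher and 6 lower in both cold libraries, where 23.3% and 20.1% of all genes did.

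In the dendritic cells most genes lay lower in cold. T cell markers (7 genes) summed to 838 and 729 CPM in cold against 328 and 472 CPM, those of NK cells to 68.2 and 40.0 against 12.7 and 25.2 CPM and those of type 2 innate lymphoid cells to 281 and 252 against 110 and 167 CPM. Fibroblast markers (46.1 and 36.9 against 243 and 105 CPM), the dendritic markers themselves (1171 and 1211 against 1307 and 1699 CPM) and transcripts of the mitochondrial genome (30678 and 32203 against 34714 and 41014 CPM) were lower in cold. Their part in the values below was not tested.

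None of the 24 genes tested in dendritic cells passed (0.108% of all genes did), 2 had an unadjusted p under 0.05 by edgeR and 1 by DESeq2, which called none, and 16 had a fold change below 0. The count of 16 was not set against the share of all genes. Slc25a20 was 40.1 and 46.2 CPM in cold and 102 and 78.6 CPM at room temperature (-1.02, SE 0.26, edgeR adjusted p = 0.453), and Acsl5 was 36.1 and 51.3 against 77.1 and 67.8 CPM (-0.66, adjusted p = 0.734). In all, 9 genes lay lower and 3 higher in both cold libraries, against 19.5% and 17.6% of all genes. The 3 were Decr1, Eci2 and Acaa1a, the last 2 peroxisomal. In NK cells and B cells none of 17 and 20 genes passed (2.02% and 0.107% of all genes did), 1 in each had an unadjusted p under 0.05 by edgeR, and DESeq2 had none. These were Etfa in NK cells (68.7 and 60.3 against 34.9 and 38.8 CPM, 0.80, edgeR adjusted p = 0.237) and Cpt1a in B cells (21.7 and 28.5 against 13.05 and 11.3 CPM, 1.07, adjusted p = 0.524). In the B cells Cpt1a met the count filter through its cold libraries only. In NK cells 6 genes lay higher and 2 lower in both cold libraries, where 20.3% and 23.6% of all genes did, and in B cells 5 and 2, where 15.1% and 21.3% did. The NK class's own markers were lower in cold (6941 and 8515 against 10297.4 and 12020.5 CPM), as were B cell markers (161 and 294 against 436 and 416 CPM). Markers of type 2 innate lymphoid cells were higher (573 and 677 against 209 and 281 CPM). Their part in the NK values, here and below, was not tested.

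Some genes kept a sign across classes without passing in any. Eci2 had a fold change above 0 in 10 of 10 classes, from 0.03 to 0.66, and was higher in both cold libraries in 7. Acadl was above 0 in 9 of 10 classes (-0.11 to 0.67) and Cpt1a in 9 of 10 (-0.10 to 1.07), each higher in both cold libraries in 6. Acat1 was below 0 in 9 of 10 (-0.85 to 0.27) and lower in both cold libraries in 6, with the vascular endothelium as the exception. Acsl5 was below 0 in 8 of 10 and lower in both cold libraries in 5. All classes come from the same 4 libraries, so these are not independent repeats. The genes were named after their signs were seen, and how many of all genes keep a sign over the classes was not counted. For Cpt1a the 1.07 is the B cell value, where only the cold libraries met the count filter. Crat and Cpt1c were below 0 in every class where they could be tested (5 and 4).

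The mitochondrial and the peroxisomal genes were also summed per library. In the luminal hormone-sensing class the 5 peroxisomal genes summed to 407 and 398 CPM in cold against 315 and 358 CPM, a ratio of means of 1.20, and the 23 mitochondrial genes to 1881 and 1943 against 1826 and 1576 CPM, a ratio of 1.12. Of the genes tested there, 4 of 5 peroxisomal and 12 of 22 mitochondrial genes had fold changes above 0, with medians of 0.43 and 0.04. These counts and medians were not set against those of all genes in the class. By step the ratios in this class were alike, 1.19 for the 4 peroxisomal enzymes without Acot6 and 1.18 for the 10 genes of the mitochondrial spiral. In the alveolar progenitors the 5 peroxisomal genes had a ratio of 1.19, and without Acot6 the ratio was 1.06 with overlapping groups, against 1.14 for the mitochondrial spiral. In the luminal cluster with both marker sets the ratios were 1.23 and 1.17. Fibroblasts had 186 and 197 against 176 and 184 CPM for the peroxisomal and 1209 and 1234 against 1176 and 1176 CPM for the mitochondrial genes, ratios of 1.06 and 1.04. In dendritic cells the compartments went apart: the peroxisomal sum was 148 and 150 against 120 and 125 CPM, and the mitochondrial sum 692 and 758 against 863 and 847 CPM. In each of these sums, except the alveolar peroxisomal sum without Acot6, both cold libraries lay on the same side of both controls. With 2 libraries a group the smallest p of an exact permutation test is 0.333, so the sums carry no test.

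**Figure D5:**
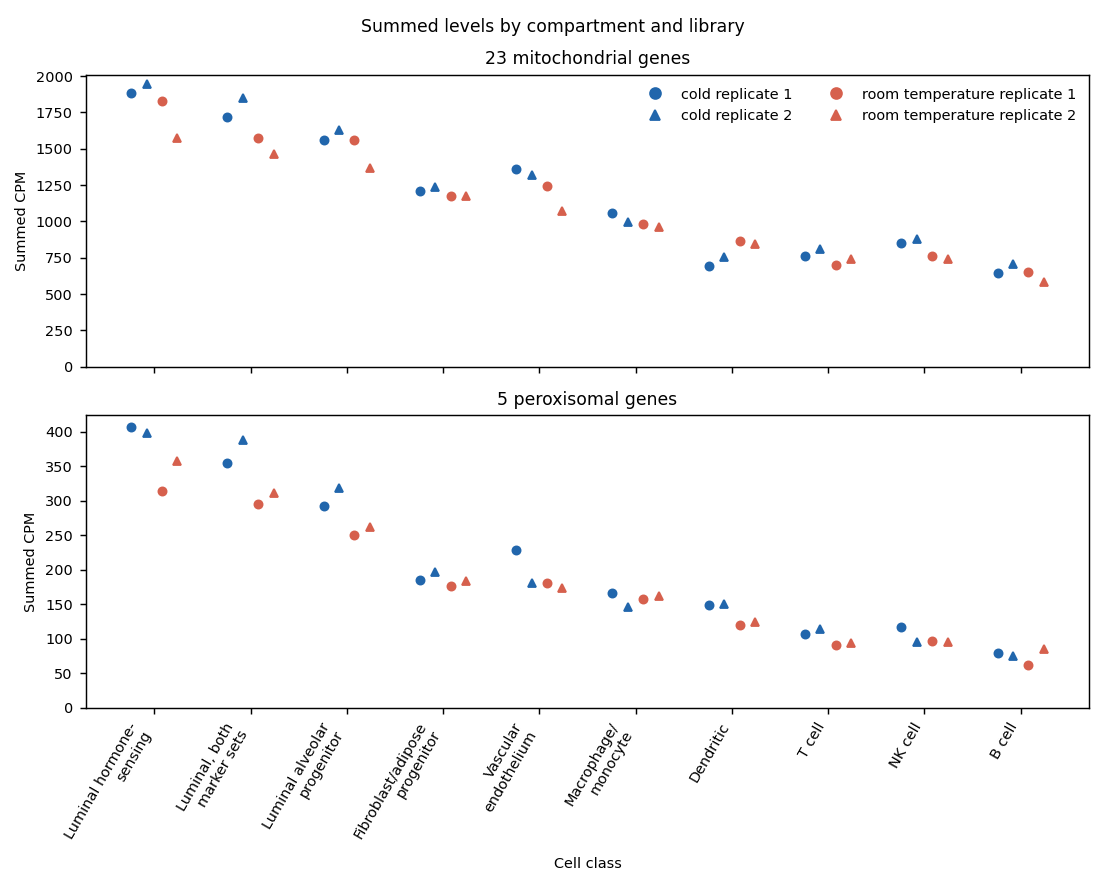
Summed CPM of the 23 mitochondrial genes (top) and the 5 peroxisomal genes (bottom), vertical axes from 0, in each library of 10 classes, with cold in blue and room temperature in red. The dendritic column is the one where cold points lie below the controls for the mitochondrial genes and above them for the peroxisomal genes.

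Other genes of fatty acid oxidation were counted from lists of related genes. Of 18 further peroxisomal genes (Scp2 among them), 14 further mitochondrial genes (such as Echs1) and 12 of activation and uptake (such as Cd36), none passed by edgeR in any of the 10 classes. At an unadjusted p under 0.05 edgeR had 12 of 114, 7 of 94 and 19 of 83 tests of these lists, and DESeq2 called 2, 0 and 5. In the luminal hormone-sensing class 13 of the 14 peroxisomal genes tested had a fold change above 0, with a median of 0.27, and 2 had an unadjusted p under 0.05. These values were not set against those of all genes in the class. A list of 19 genes of the PPAR axis and the fuel switch did hold passing genes, 6 of 98 tests by edgeR and 13 by DESeq2. In the luminal alveolar progenitors 3 of 9 tested rose, where 0.423% of all genes did. Angptl4, an inhibitor of lipoprotein lipase, was 130 and 164 CPM in cold and 19.7 and 2.25 CPM at room temperature (3.98, SE 0.59, edgeR adjusted p = 0.0167). The controls alone would not have brought Angptl4 past the count filter, as room temperature replicate 2 lay below its level. Txnip, a glucose-regulated inhibitor of thioredoxin, was 4030 and 2665 against 389 and 976 CPM (2.19, adjusted p = 0.0409), and Ucp2, a mitochondrial carrier, 593 and 561 against 182 and 174 CPM (1.60, adjusted p = 0.0483). Without cold replicate 1, 2 of the list passed there.

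In fibroblasts and adipose progenitors 1 of 12 tested genes of that list rose, Pdk4, the kinase that shuts pyruvate out of the mitochondrion, at 71.8 and 83.3 CPM in cold against 16.8 and 7.48 CPM (2.56, SE 0.30, edgeR adjusted p = 0.0189). Of all genes in this class 2.58% passed, in either direction. Txnip rose in T cells (249 and 272 against 151 and 120 CPM, 0.87, adjusted p = 0.0170) and in NK cells (336 and 436 against 177 and 126 CPM, 1.42, adjusted p = 0.000676). Without cold replicate 1 no gene of the list passed in the fibroblasts, and without room temperature replicate 2 or at Leiden resolution 2 none in the T cells. In the other classes none passed. A list of 12 genes known to respond to tissue dissociation had 4 that rose in the T cells, 4 in the fibroblasts, 5 in the NK cells and 6 in the dendritic cells. Over all genes 2.44%, 2.58%, 2.02% and 0.108% passed in these classes in either direction, and in the dendritic cells that was 8 of 7434 genes. None of the list rose in the alveolar progenitors, where 10 of 12 had a fold change below 0, a count not set against the share of all genes. The part of this in the results was not tested.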

How the data were processed

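Raw UMI counts per gene and barcode were used as deposited by the authors, and the file headers name Cell Ranger 3.0.2. The builds mm10 and GRCm38 and the tool Seurat are named per the submitters' processing notes, but no source used here gives the annotation release. Cells were kept at 500 genes or more and mitochondrial UMIs under 15%, doublets were removed by scores against simulated doublets at 0.8% per 1000 cells, and 2000 variable genes, 30 principal components and 15 neighbours gave Leiden clusters at resolution 1 with no batch correction (leidenalg 0.10.2, igraph 0.11.9 and scikit-learn 1.9.0 in Python 3.11.15). Clusters were named from at least 3 markers detected in at least 10% of the cells; a rival type within a log2 margin of 1 made a cluster mixed. Classes with at least 20 cells in each library were tested on counts summed per library, so the basal/myoepithelial (19 cells in a cold library), Schwann, neutrophil and lymphatic classes and the other mixed or unnamed clusters were not. Tests used edgeR 4.0.16 in R 4.3.3 (TMM, filterByExpr, quasi-likelihood F-test), with class by condition terms and the library as block for differences between classes. The scripts were tested on simulated counts.

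The alternatives were the replicate block, DESeq2 1.42.0, RLE scaling, no count filter, doublets kept, a looser cell filter (200 genes, 25%), Leiden resolution 2, each library left out, and single clusters alone or left out. The genes and lists were chosen with earlier results of these data known. Named in full are all genes past the threshold, the 4 with the smallest adjusted p in the alveolar, hormone-sensing and fibroblast classes, and up to 4 passing genes per related list; the others named were chosen after their values were seen. Gene positions are GENCODE on GRCm38.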

Additional observations from a re-analysis of the deposited data

Results flagged for a closer look

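In T cells minus the luminal cluster with both marker sets, the test of the difference in cold effect gave -2.35 on the log2 scale for Acsl3 (edgeR quasi-likelihood, adjusted p = 0.00198) and -1.30 for Acot2 (adjusted p = 0.0172). This pair of classes was compared because opposite values had been seen in it, so the test restates that observation. The Acot2 difference did not pass without room temperature replicate 2 (-1.35, adjusted p = 0.0735). T cells minus fibroblasts (adjusted p = 0.109 for Acsl3 and 0.156 for Acot2) and minus macrophages (0.564 and 0.391) did not pass, and none of the 5 pairs of classes chosen first had a call among these genes.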

How the results depend on the processing

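The counts of genes past the threshold were 2 in T cells, 1 in the alveolar progenitors and 0 in the other classes. They stayed within 1.5 times of these values, or at 0, in 97 of 116 pairs of class and alternative setting. Most of the 116 pairs belong to the classes with a count of 0, so the share says little about the T cells and alveolar progenitors. In T cells there were 4 with the replicate block, 1 with DESeq2, 0 to 2 with a library left out, 4 without the Cd8b1-led cluster, and 0 in the Dapl1-led or Tnfrsf4-led cluster alone, where in the latter Acot2 turned to a log2 fold change of 0.041. In the alveolar progenitors there were 0 with DESeq2, whose adjusted p for Acot6 was NA, 0 at Leiden resolution 2, and 0 to 2 with a library left out. The luminal cluster with both marker sets had 2 with DESeq2, 8 with no count filter and 0 to 12 with a library left out. The fibroblasts had 2 with the replicate block and 1 with no filter, the macrophages 1 and 1, and the dendritic cells 1 with no filter. The cause was not tested. The replicate numbers are not a pairing in the labels: deviations of same-numbered libraries correlated from -0.388 to 0.461 over classes. Counts over all genes moved too, in T cells from 61 (without room temperature replicate 2) to 1271 (replicate block) around 244, in fibroblasts from 3 (without cold replicate 1) to 1488 (replicate block) around 300, in alveolar progenitors from 14 to 489 around 42, and in the luminal cluster with both marker sets from 0 to 2744 around 2. With 2 libraries a group, and 3 to 58 UMIs per library behind Acot6 in alveolar progenitors and Acsl3 in T cells, small changes were not detectable at this depth.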
